A study of Mus musculus with 3 samples.

Results

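The machinery that docks, primes and fuses secretory granules with the plasma membrane was examined in αTC1-6 cells, a mouse cell line that makes glucagon and was established from an islet tumour. The set held 40 genes, chosen by name for their role: SNARE proteins, the factors that assemble and take apart SNARE complexes, synaptotagmins, and the Rab3 and Rab27 GTPases with their effectors. All 40 were found by gene ID among the 52948 IDs of each library. The labels describe 3 samples of these cells, each given an adenovirus for 16 h: one carried β-galactosidase (β-Gal, the viral control), one NIK and one NIK(KA). Map3k14 encodes this NF-κB-inducing kinase, and NIK(KA) is known from the literature as its kinase mutant, which the labels do not spell out. Every group was therefore infected, no group without virus was analysed here, and each group was 1 library, so the values below have no replicate check and no test between conditions is given. Depth was 18629668 reads with β-Gal, 15523580 with NIK and 16652922 with NIK(KA).

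Regulated secretion runs through a core complex of a vesicle SNARE (a VAMP) and target SNAREs (a syntaxin and a SNAP-25 type protein), which zip together and pull the membranes into contact. Munc18 and Munc13 proteins assemble this complex, complexins and synaptotagmins couple it to calcium, and NSF with α-SNAP takes it apart for another round. Rab3 and Rab27 on the granule surface bind effectors that bring the granule to its site of release. In α cells this machinery releases glucagon granules when calcium enters the cell.

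Levels are given as deposited FPKM, which divide a gene's reads by its length in kilobases and by the library total. A gene was called different when log2(FPKM + 1) differed by at least 1 (2-fold) between libraries, over the 12950 genes whose mean FPKM reached 1. Adding 1 makes differences of weakly expressed genes look smaller than they are. Fold values are ratios of reads per library total, with an exact 95% interval (conditional binomial) that covers counting error only. Of the 40 members 35 passed the filter. Those below it were Unc13b, Cadps2, Rab27b, Rims1 and Sytl4. Where 3 values follow each other, they stand in the order β-Gal, NIK, NIK(KA). Heart muscle markers were found mainly in the β-Gal library, with a summed FPKM of 32.4 against 1.39 in NIK and 1.48 in NIK(KA), and all 6 were at least 2-fold lower in both other libraries. Of 4 liver markers, Alb and Apoa2 met the 2-fold rule as higher with NIK(KA) against β-Gal and as lower in NIK against NIK(KA). Alb was at 1.07, 0.430 and 5.01 FPKM and Apoa2 at 2.66, 2.66 and 7.43. Apoa1, below the filter, had 2, 1 and 27 reads. Ttr, which α cells also make, was at 451, 238 and 399 FPKM. It made up most of the sum of the 4, at 455, 241 and 414.

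In the NIK library single members stood above and below the other libraries, with no one-sided move of the set. In NIK against β-Gal, 3 members were at least 2-fold higher, against 5.14% of all genes tested, and 2 were at least 2-fold lower, against 1.48% of all genes. The higher members, 8.57% of the 35, were Stxbp3, Syt1 and Vamp8. The lower members, 5.71% of the 35, were Syt13 and Rph3al. The same genes met the rule in NIK against NIK(KA), where 5.07% of all genes were higher and 1.10% lower; both comparisons use the same NIK library. In NIK(KA) against β-Gal no member met the rule in either direction, where 0.263% of all genes were higher and 0.417% lower, and the member differences ran from -0.28 to 0.40 on the log2(FPKM + 1) scale.

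The middle of the set moved little. The median difference of the 35 members was -0.10 in NIK against β-Gal, with an interquartile range of -0.38 to 0.18, beside a median of -0.02 and a range of -0.21 to 0.21 for all genes. It was -0.08 in NIK against NIK(KA), beside -0.03 for all genes, and -0.03 in NIK(KA) against β-Gal, beside 0.01. In NIK against β-Gal 16 members lay above 0 and 19 below.

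**Figure D1:**
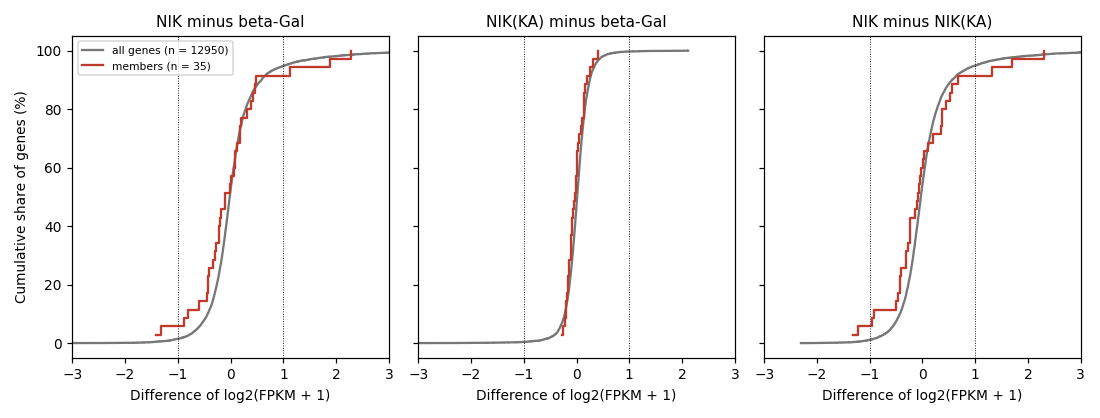
Cumulative share of genes (vertical axis, percent) against the difference of log2(FPKM + 1) between libraries (horizontal axis), for the 35 members past the filter in red and all 12950 genes in grey; dotted lines mark the 2-fold rule. In both panels with NIK 3 members lie to the right of the rule and 2 to the left, while in NIK(KA) minus β-Gal all 35 lie between -0.28 and 0.40.

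The RefSeq promoters (build GRCm38.p6, from 250 bases before to 50 after an annotated start) are shown for the 4 members past the 2-fold rule that have an entry, to set the members called in NIK beside each other. Capitals mark a match to the κB consensus, the 10-base motif bound by NF-κB dimers, searched on both strands. The search had been planned for the case that members moved together in NIK, which the set as a whole did not.

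Stxbp3 (chr3:108840453-108840752, minus strand): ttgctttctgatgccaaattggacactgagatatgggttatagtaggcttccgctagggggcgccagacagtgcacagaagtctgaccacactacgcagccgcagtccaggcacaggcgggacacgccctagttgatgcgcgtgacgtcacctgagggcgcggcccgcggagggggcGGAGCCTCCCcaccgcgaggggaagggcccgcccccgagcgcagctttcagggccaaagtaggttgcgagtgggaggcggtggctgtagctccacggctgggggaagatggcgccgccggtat

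Syt1 (chr10:109010926-109011225, minus strand): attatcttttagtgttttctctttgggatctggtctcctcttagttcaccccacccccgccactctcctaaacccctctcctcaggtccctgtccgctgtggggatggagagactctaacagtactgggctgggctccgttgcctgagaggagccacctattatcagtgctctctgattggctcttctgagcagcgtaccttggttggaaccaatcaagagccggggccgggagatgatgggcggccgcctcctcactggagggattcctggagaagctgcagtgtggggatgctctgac

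Vamp8 (chr6:72390618-72390917, minus strand): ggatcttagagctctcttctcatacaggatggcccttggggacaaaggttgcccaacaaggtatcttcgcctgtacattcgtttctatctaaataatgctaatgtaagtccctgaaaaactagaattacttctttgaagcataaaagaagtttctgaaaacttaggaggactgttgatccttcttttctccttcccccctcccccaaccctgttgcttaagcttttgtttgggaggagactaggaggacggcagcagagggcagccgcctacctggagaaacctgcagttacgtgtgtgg

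Rph3al (chr11:75925842-75926141, minus strand): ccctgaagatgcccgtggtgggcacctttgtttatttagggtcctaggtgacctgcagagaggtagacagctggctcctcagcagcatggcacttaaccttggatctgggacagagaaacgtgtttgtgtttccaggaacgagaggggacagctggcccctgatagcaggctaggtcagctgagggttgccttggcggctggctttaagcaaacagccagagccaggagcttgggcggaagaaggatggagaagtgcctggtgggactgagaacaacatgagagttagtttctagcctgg

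The Stxbp3 window held 1 match, at -73 to -64 from the annotated start. The windows of Vamp8 and Rph3al, and the 2 windows of Syt1, of which the upstream one is printed, held none. The Rph3al window lay inside the span of the gene in GENCODE M21 (75830999 to 75938429), so the upstream end of that span was not searched. Windows were found for 29 members, and 3 of these had a match, the others being Vamp4 and Cplx2. The Cplx2 window (54302306 to 54302605) lay outside the span of that gene in GENCODE M21 (54371349 to 54383917). Among all 27025 genes with a window 9.55% had a match, and 8.46% of the 32851 windows held one. A match describes letters in this window and shows no binding.

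**Figure D2:**
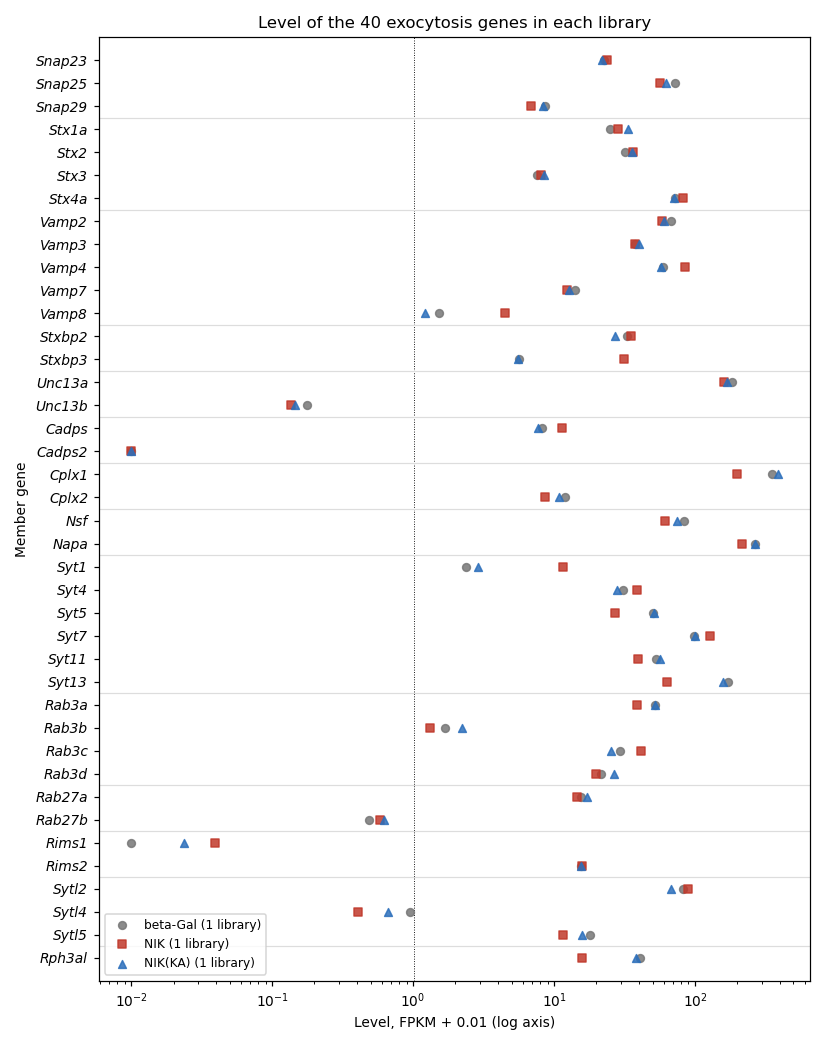
Level of each of the 40 members (rows, grouped by role) in the β-Gal, NIK and NIK(KA) libraries, as FPKM + 0.01 on a log axis; each point is 1 library and the dotted line marks an FPKM of 1. The red squares of NIK stand apart to the right for Stxbp3, Syt1 and Vamp8 and to the left for Syt13, Rph3al, Syt5 and Cplx1.

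Among the proteins that guide SNARE assembly, Stxbp3 showed the greatest difference of the 35 members between NIK and β-Gal. It encodes Munc18c, the partner of syntaxin 4 at the plasma membrane, and lies on chromosome 3 from 108793176 to 108840526 on GRCm38 (ENSMUSG00000027882). The β-Gal library had 5.64 FPKM, the NIK library 31.4 and the NIK(KA) library 5.58, from 113, 525 and 100 reads. NIK stood alone, 5.58-fold above β-Gal (4.54 to 6.89) and 5.63-fold above NIK(KA) (4.54 to 7.05), while the ratio of NIK(KA) to β-Gal was 0.990 (0.749 to 1.31). A processed pseudogene, Stxbp3-ps, had 0 reads in every library.

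Stxbp2 differed less between the libraries. This gene, which encodes Munc18-2, the partner of syntaxins 3 and 11, was at 33.1, 35.3 and 27.1 FPKM in β-Gal, NIK and NIK(KA). Its ratio of NIK to β-Gal was 1.07 (0.936 to 1.22). Of the summed FPKM of Stxbp2 and Stxbp3, Stxbp3 made up 14.6% with β-Gal, 47.1% with NIK and 17.1% with NIK(KA).

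The plasma-membrane syntaxins, which form the target side of the complex, differed little. Stx4a, the syntaxin that pairs with Munc18c, was the most abundant by FPKM, at 72.4 with β-Gal, 81.8 with NIK and 71.6 with NIK(KA), and NIK was 1.13-fold above β-Gal (1.04 to 1.23). Stx1a, the main syntaxin of neuroendocrine granules, had 640, 603 and 763 reads in β-Gal, NIK and NIK(KA). It was highest in NIK(KA), 1.33-fold above β-Gal (1.20 to 1.48), the greatest difference between those libraries among the 35 members past the filter. Stx2 and Stx3 had NIK to β-Gal ratios of 1.15 (1.03 to 1.28) and 1.07 (0.875 to 1.31). Their NIK(KA) to β-Gal ratios were similar, at 1.13 (1.01 to 1.25) and 1.12 (0.923 to 1.37).

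Of the SNAP-25 type genes, Snap25 led in each library and was lower in NIK by a small amount. The β-Gal library had 72.4 FPKM, the NIK library 56.9 and the NIK(KA) library 62.7. NIK was 1.27-fold below β-Gal (1.21 to 1.34) and 1.10-fold below NIK(KA) (1.04 to 1.16), and NIK(KA) was itself 1.15-fold below β-Gal (1.10 to 1.21). Its widely expressed paralog Snap23 had a NIK to β-Gal ratio of 1.05 (0.931 to 1.19). Snap29, a SNARE of endosomes and autophagosomes, was 1.24-fold below β-Gal in NIK (1.09 to 1.42).

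On the vesicle side, Vamp8 was higher in NIK at a low level. Vamp8, a SNARE of late endosomes that also serves granule release in exocrine and blood cells, lies on chromosome 6 from 72385223 to 72390703. The β-Gal library had 1.52 FPKM, the NIK library 4.49 and the NIK(KA) library 1.20, from 41, 101 and 29 reads. NIK was 2.96-fold above β-Gal (2.04 to 4.36) and 3.74-fold above NIK(KA) (2.45 to 5.86). With a pseudocount of 5 its log2 differences were 0.54 and 0.61, short of the rule.

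The more abundant VAMPs differed less. Vamp4, a SNARE of the trans-Golgi and of maturing granules, was at 59.8, 84.3 and 57.2 FPKM, and NIK was 1.41-fold above β-Gal (1.32 to 1.51). Vamp2, the main vesicle SNARE of insulin and glucagon granules, was at 67.5, 58.1 and 60.4 FPKM, 1.16-fold below β-Gal in NIK (1.07 to 1.26). Vamp3, its paralog on recycling vesicles, had a NIK to β-Gal ratio of 0.996 (0.896 to 1.11). Vamp7, a lysosomal SNARE whose gene lies on a scaffold of the build, had a ratio of 0.879 (0.780 to 0.989).

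The synaptotagmins differed in opposite directions. Syt13, a synaptotagmin that does not bind calcium, was the most abundant of the 6 by FPKM in β-Gal. It lies on chromosome 2 from 92915098 to 92956058 (ENSMUSG00000027220). The β-Gal library had 171 FPKM, the NIK library 63.0 and the NIK(KA) library 159, from 11951, 3677 and 9970 reads. NIK was 2.71-fold below β-Gal (2.61 to 2.81) and 2.53-fold below NIK(KA) (2.43 to 2.63). NIK(KA) was close to β-Gal, 1.07-fold lower (1.04 to 1.10).

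Syt1, the fast calcium sensor of synaptic vesicles, went the other way from a low level. Its gene spans chromosome 10 from 108497650 to 109010982. The β-Gal library had 2.38 FPKM, the NIK library 11.5 and the NIK(KA) library 2.89, from 133, 536 and 144 reads. NIK was 4.84-fold above β-Gal (3.99 to 5.89) and 3.99-fold above NIK(KA) (3.32 to 4.83), with a NIK(KA) to β-Gal ratio of 1.21 (0.950 to 1.54).

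The remaining synaptotagmins stayed within the 2-fold rule. Syt5, a calcium-binding synaptotagmin of dense-core granules, was at 50.3, 26.9 and 51.6 FPKM, and NIK was 1.87-fold below β-Gal (1.65 to 2.12). Syt7, the slow, high-affinity calcium sensor of islet granules, was at 97.7, 129 and 100 FPKM, with NIK 1.32-fold above β-Gal (1.27 to 1.37). Syt4 was 1.24-fold higher (1.17 to 1.32) and Syt11 1.34-fold lower (1.26 to 1.42) in NIK than in β-Gal; neither protein is thought to act as a classical calcium sensor.

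The order of the 6 members thus differed between libraries. Syt13 made up 42.1% of their summed FPKM in β-Gal and 39.9% in NIK(KA), but 20.4% in NIK. Syt7 made up 24.1%, 25.2% and, in NIK, 41.8%, and was the leading member there. The sum itself was 405 with β-Gal, 309 with NIK and 399 with NIK(KA).

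**Figure D3:**
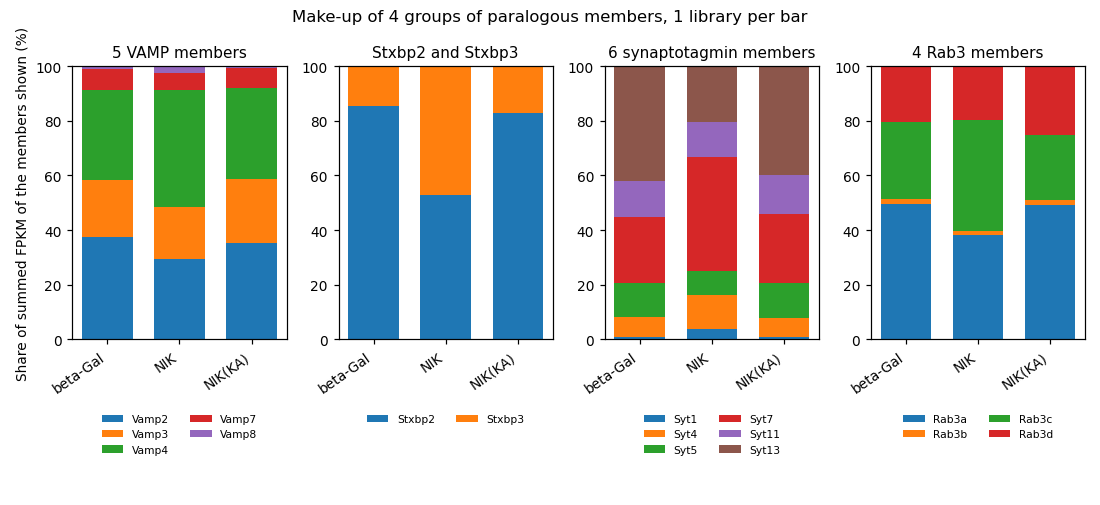
Share of each member (coloured segments, percent of the summed FPKM of the members shown) in 4 groups of paralogs, with 1 bar per library. In NIK the Stxbp3 segment is 47.1% against 14.6% in β-Gal, the Syt13 segment 20.4% against 42.1%, and the Rab3c segment 40.7% against 28.2%.

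The complexins, small proteins that clamp and then promote fusion of the assembled complex, were lower in NIK. Cplx1 was the most abundant member by FPKM in β-Gal and in NIK(KA), at 350 and 387, and stood at 200 in NIK, from 8564, 8460 and 4074 reads. NIK was 1.75-fold below β-Gal (1.69 to 1.82) and 1.94-fold below NIK(KA) (1.86 to 2.01), short of the 2-fold rule with differences of -0.81 and -0.95. Cplx2 was at 11.9, 8.56 and 10.9 FPKM, 1.39-fold below β-Gal in NIK (1.26 to 1.54).

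By a second rule, in which the interval must lie wholly beyond 1.5-fold, Cplx1 and Syt5 joined Syt13 and Rph3al below β-Gal, 4 of 35 members against 2.95% of all genes. The same 4 lay below NIK(KA), where 2.44% of all genes did. Above β-Gal this rule named Stxbp3, Syt1 and Vamp8 again, where 7.02% of all genes met it, and against NIK(KA) it added Rab3c, where 6.64% did. In NIK(KA) against β-Gal it named no member, beside 0.170% of all genes above and 0.147% below.

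The priming and recycling factors were lower or higher in NIK by less than 1.5-fold. Unc13a, which encodes the priming factor Munc13-1, was at 183, 160 and 169 FPKM, and NIK was 1.14-fold below β-Gal (1.11 to 1.18). Its paralog Unc13b had 11, 7 and 8 reads. Cadps, which encodes the dense-core granule priming factor CAPS1, was at 8.24, 11.4 and 7.65 FPKM, 1.38-fold above β-Gal in NIK (1.23 to 1.56). Cadps2 had 0 reads in every library, which allows up to 3 reads, or an FPKM of 0.0452 in β-Gal at its GENCODE M21 length.

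Nsf, the ATPase that takes spent SNARE complexes apart, was at 83.9, 61.6 and 74.6 FPKM, 1.36-fold below β-Gal in NIK (1.27 to 1.46). Its adaptor α-SNAP, encoded by Napa, was at 265, 216 and 268 FPKM, 1.23-fold lower in NIK (1.17 to 1.29). For Napa the NIK library stood apart from both others, whereas for Nsf NIK(KA) lay between them.

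Among the granule Rabs, Rab3 paralogs differed in direction. Rab3a, the Rab of synaptic and endocrine vesicles, was at 52.1 with β-Gal, 38.6 with NIK and 52.5 with NIK(KA), 1.35-fold below β-Gal in NIK (1.23 to 1.49). Rab3c was at 29.6, 41.1 and 25.5 FPKM, 1.39-fold above β-Gal (1.30 to 1.48) and 1.61-fold above NIK(KA) (1.51 to 1.73). Rab3c thereby made up 28.2%, 40.7% and 23.8% of the Rab3 FPKM in β-Gal, NIK and NIK(KA), while the sum of the 4 genes was 105, 101 and 107.

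The other Rabs were less different. Rab3d was highest in NIK(KA), at 26.7 FPKM against 21.4 in β-Gal and 19.9 in NIK, and 1.34-fold lower in NIK than in NIK(KA) (1.21 to 1.49). Rab3b was at 1.68, 1.31 and 2.20 FPKM. Rab27a, the Rab that tethers dense-core granules, was at 15.7, 14.5 and 17.3 FPKM, with a NIK to β-Gal ratio of 0.924 (0.818 to 1.04). Rab27b had 35, 35 and 40 reads, below the filter.

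Of the Rab effectors, Rph3al was the one past the rule. It encodes Noc2, an effector of Rab3 and Rab27 in endocrine granules, and lies on chromosome 11 from 75830999 to 75938429 (ENSMUSG00000020847). The β-Gal library had 41.1 FPKM, the NIK library 15.8 and the NIK(KA) library 38.4, from 931, 298 and 778 reads. NIK was 2.60-fold below β-Gal (2.28 to 2.98) and 2.43-fold below NIK(KA) (2.13 to 2.79), and the interval of NIK(KA) against β-Gal included 1 (0.849 to 1.03).

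The synaptotagmin-like proteins and RIMs link Rab27 and Rab3 to the membrane and the priming site, and those past the filter stayed within 2-fold. Sytl2, a Rab27 effector of glucagon granules, was at 82.0, 88.7 and 68.0 FPKM; NIK was 1.08-fold above β-Gal (1.03 to 1.13) and 1.30-fold above NIK(KA) (1.24 to 1.37). Sytl5 was at 18.0, 11.5 and 15.9 FPKM, 1.56-fold below β-Gal in NIK (1.38 to 1.77). Sytl4, which encodes granuphilin, lay below the filter with 40, 14 and 25 reads, 2.38-fold fewer per library in NIK than in β-Gal (1.27 to 4.74). Rims2, the RIM of endocrine cells, was at 15.6, 15.7 and 15.6 FPKM, with a NIK to β-Gal ratio of 1.01 (0.932 to 1.09), and Rims1 had 0, 2 and 1 reads.

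**Figure D4:**
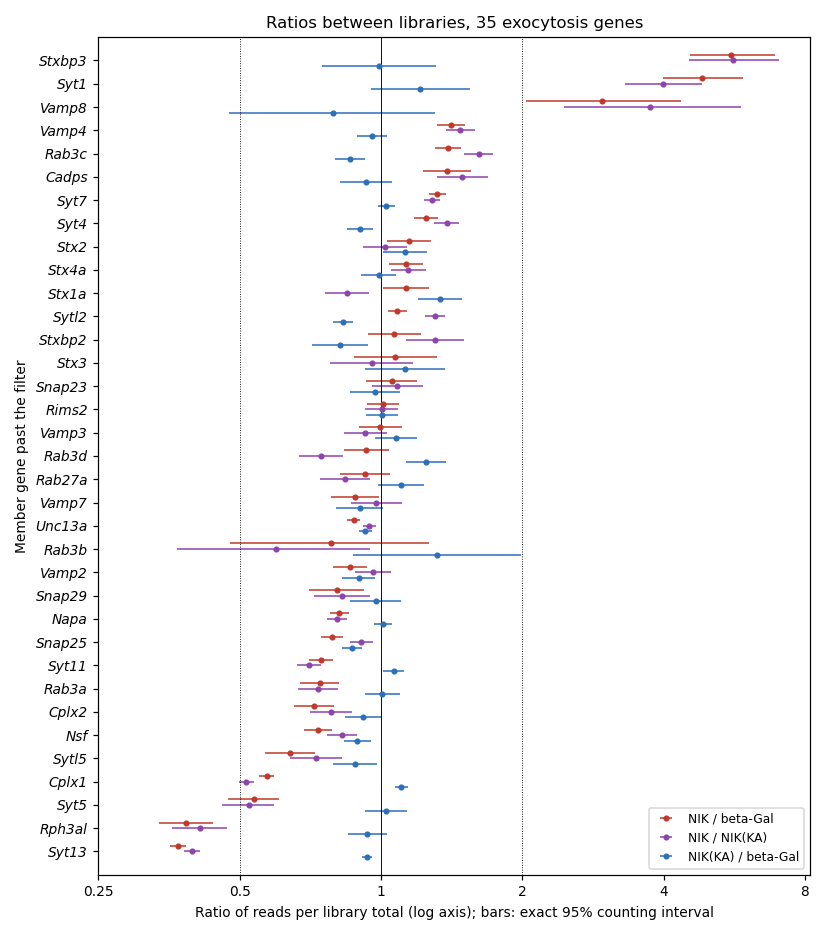
Ratio of reads per library total for the 35 members past the filter (rows), on a log axis, for NIK over β-Gal in red, NIK over NIK(KA) in purple and NIK(KA) over β-Gal in blue; bars are exact 95% counting intervals and dotted lines mark 2-fold. The red and purple points of Stxbp3, Syt1 and Vamp8 lie above 2 and those of Syt13 and Rph3al below 0.5, while every blue point lies between the dotted lines.

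Genes of the same process outside the 40 were read from 4 further lists. Their counts in NIK against β-Gal stand beside 5.14% of all genes tested that were higher and 1.48% that were lower. Of 43 other exocytosis genes 23 passed the filter, and 2 were at least 2-fold higher and 0 lower in NIK than in β-Gal, with a median of -0.10. The higher ones were Stx11 and Myrip. Stx11, the target SNARE of cytotoxic granules in lymphocytes and a partner of Munc18-2, was at 1.37 FPKM with β-Gal, 47.0 with NIK and 0.979 with NIK(KA), from 58, 1655 and 37 reads. It was 34.2-fold above β-Gal (26.4 to 45.3), further than any member of the set.

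Myrip, which links Rab27a to myosin and actin, was at 3.26, 9.10 and 4.65 FPKM, 2.79-fold above β-Gal (2.19 to 3.58) and 1.96-fold above NIK(KA) (1.57 to 2.45). Napg, which encodes γ-SNAP and was among the most abundant of this list, had a NIK to β-Gal ratio of 0.847 (0.780 to 0.920).

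Of 19 transport SNAREs of the Golgi and endosomes, all past the filter, 1 was higher and 0 were lower in NIK than in β-Gal, with a median of -0.03. This was Stx6, a trans-Golgi and endosomal syntaxin, at 44.7, 114 and 51.4 FPKM and 2.55-fold above β-Gal (2.38 to 2.73). Stx16 and Ykt6, the most abundant, were at 123, 92.8 and 104 and at 94.8, 86.8 and 97.9 FPKM. No gene met the rule among the 11 of the exocyst list, led by Exoc4 and Exoc7, with a median of 0.09. None did among 13 regulators of Rab3 and Rab27, with a median of -0.12.

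The labelled cell type was checked against its markers. All 10 α-cell markers passed the filter in these libraries, and Ins1, Ins2 and Sst had 0 reads in each. Other markers of β and δ cells were present. Of 7 β-cell markers 2 passed the filter, Nkx6-1 at 35.4, 29.6 and 41.7 FPKM and Mafa at 0.845, 0.716 and 2.11. Mafa had 51, 36 and 114 reads, and neither gene met the 2-fold rule, with its added 1, in any comparison. By reads, Mafa in NIK(KA) was 2.50-fold above β-Gal (1.78 to 3.55). In NIK it was 2.95-fold below NIK(KA) (2.01 to 4.42), with a NIK to β-Gal ratio of 0.847 (0.537 to 1.32). Hhex, listed with Sst for δ cells, was below the filter with 38, 42 and 40 reads. The summed FPKM of the α-cell list was 13869 with β-Gal, 8324 with NIK and 11884 with NIK(KA), and most of it was Gcg, at 12093, 6955 and 10197 FPKM. None of the 10 met the 2-fold rule, and they did not all lie on the same side: Isl1 was at 311, 188 and 245 FPKM, Pou3f4 at 27.3, 32.2 and 31.7, and Pax6 at 117, 156 and 119. The list's median difference was -0.51 in NIK against β-Gal and -0.38 against NIK(KA). Of 4 markers of neurons, cells that share much of this machinery, 1 was lower in NIK, Tubb3, at 50.3, 21.7 and 50.7 FPKM. Map2, the most abundant, was at 168, 206 and 158, and the 4 summed to 249, 254 and 236 FPKM. The part of these, the heart muscle and the liver markers in the results was not tested, and in bulk RNA fewer cells of a type and less RNA per cell cannot be told apart.

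Markers of blood cells, in which Vamp8 and Stx11 are also used, were close to 0. The part of blood cells in the values of these genes was not tested. None of 5 leukocyte markers passed the filter, their summed FPKM was 0.558 with β-Gal, 0.321 with NIK and 1.10 with NIK(KA), and Ptprc had 0, 0 and 1 reads. Map3k14, the kinase's own gene, was at 5.35, 8.42 and 12.1 FPKM and Nfkb2, a target of the pathway, at 5.80, 261 and 9.07.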

How the data were processed

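Expression was measured by RNA sequencing in 3 libraries, 1 per group. TopHat2, HTSeq 0.6.1 and build GRCm38 are named in the submitters' processing notes; the sources used here do not give their roles, the strand setting or the annotation release. FPKM values were computed by the authors and used as deposited. All 3 deposited columns were used.

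Gene IDs were matched to GENCODE M21, also on GRCm38; 52489 matched. Within a gene the values moved in whole steps, each the worth of a single read, so reads and library totals were recovered, within 0.001 of a read, for 26584 detected genes. Summed over genes they made up 99.59% of the β-Gal total, 99.57% of NIK and 99.59% of NIK(KA). For 90.8% of genes the implied length differed by at most 1 base from the average over its transcripts, so a gene with many short transcripts has a raised FPKM, which touches comparisons between genes and not between libraries. For Syt7 and Rims2 the authors' lengths were 2483 and 4760 bases, against 1761 and 2359 in GENCODE M21. Reads were used for intervals and for levels of weakly counted genes; they carry no molecular identifiers, so they are not independent molecules. A count of 0 was taken to allow 3 reads. Recovery and the 2-fold rule were tried on simulated reads, made with the recovered gene lengths and with counting error alone. This cannot check those lengths, or the rule under spread between libraries.

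Exons of 8 members overlap another gene (Rab27a, Rab3a, Rab3b, Snap29, Stx4a, Syt4, Syt7 and Unc13a), and without a known strand setting such reads cannot be told apart. Map3k14 was left out of all counts. The members and lists were chosen with earlier results of these data known. All 40 members were described; from other lists, genes past the 2-fold rule and the 2 with the highest mean FPKM were named, with Map3k14, Nfkb2, Gcg and marker genes; some of these are not reported here. Alternatives changed the pseudocount, the filter, the scaling and the gene types. Python 3.11.15, pandas 2.3.3, scipy 1.17.1 and matplotlib 3.10.9 were used.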

Additional observations from a re-analysis of the deposited data

How the results depend on the processing

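The member counts of the 2-fold rule moved by no more than 1.5 times with a pseudocount of 0.1 or 5, no filter, a stricter filter at a mean FPKM of 5, median-ratio, upper-quartile or TPM scaling, or protein-coding genes only. The higher count was 2 in place of 3, without Vamp8, with a pseudocount of 5 or a mean FPKM of 5. The count of lower members moved from 2 to 4, against β-Gal and against NIK(KA), when the interval had to lie beyond 1.5-fold, a rule tried after the data were seen. No called member changed sign. The members' median stayed between -0.18 and -0.05 in NIK against β-Gal, between -0.13 and -0.05 against NIK(KA), and between -0.07 and -0.02 in NIK(KA) against β-Gal, and no scaling moved the median of all genes by over 0.1. Of 834 differences of single members set against an alternative, 12 changed sign, all of them for uncalled differences of Snap23, Rims2, Rab3a, Napa, Syt5 or Stx2.

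As a share of reads, with no division by length, Stxbp3 made up 18.6%, 54.5% and 21.7% of Stxbp2 and Stxbp3 together in β-Gal, NIK and NIK(KA). Syt13 made up 52.8%, 26.8% and 50.8% of the 6 synaptotagmins, Syt7 20.0%, 36.2% and 21.1%, and Rab3c 47.3%, 60.4% and 41.0% of the Rab3 genes. The counts over all genes depend more on the setting. Those in NIK against β-Gal, 666 higher and 192 lower, ranged from 357 to 884 and from 54 to 357. Those against NIK(KA), 657 and 142, ranged from 335 to 850 and from 34 to 305. Those of NIK(KA) against β-Gal, 34 and 54, ranged from 1 to 119 and from 6 to 128, over the same alternatives. No paired analysis was possible because each group holds 1 library. Depth limits Vamp8, Rab3b and the 5 members below the filter most.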
